A study of Homo sapiens with 6 samples.

Results

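Host transcripts are long RNAs whose introns or exons carry a smaller functional RNA. Those described here are the small nucleolar RNA host genes (SNHG), with GAS5 and ZFAS1, and the microRNA host genes whose symbols begin with MIR and end with HG. They were chosen by symbol and by a readout, a minimum of 60 counts summed over the 6 libraries. Of 37871 genes listed, 88 had such a symbol, and 60 reached the minimum, 27 SNHG hosts (GAS5 and ZFAS1 included) and 33 MIR hosts. The 28 under the minimum were 3 SNHG and 25 MIR symbols, 11 of them at 0 in every library. Nearest above the minimum were MIR4713HG with 69 counts, MIR302CHG with 87 and SNHG22 with 90, and nearest below it SNHG28 with 55, MIR219A2HG with 42 and MIR181A1HG with 35. Symbols with a hyphen do not match the rule, and the most abundant of them was MIR4435-2HG, with 18444 counts.

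The cells were T24, a long-established line from a human bladder carcinoma that the labels call epithelial, and their RNA was sequenced in 2 groups of 3 libraries. One group had received vehicle, and the other lipopolysaccharide (LPS), a bacterial cell wall component that signals through TLR4, together with nigericin, an ionophore whose potassium efflux sets off the NLRP3 inflammasome. The sources used here give neither dose nor duration, neither agent was given alone in these samples, and the libraries are not said to come from separate cultures, so p-values measure the spread between libraries, which may be technical. Library totals were 66180407 to 89152224 counts. KRT7 was at 1747 to 4016 CPM (counts scaled by library size and TMM factor) and KRT18 at 410 to 1816, while CDH1 was at 0.0714 CPM or less, and 10 of 13 leukocyte, endothelial and fibroblast markers stayed under 1 CPM in each library, COL1A1, CD14 and PDGFRB being the exceptions. Across protein-coding genes, deviations of log2 CPM from the mean of the 6 libraries followed transcript GC content, with Spearman correlations of 0.194 to 0.609 in vehicle and -0.540 to -0.431 in treated libraries, and followed transcript length at -0.350 to -0.197 and 0.232 to 0.366. The share of counts from the mitochondrial genome was 6.49% to 7.33% in vehicle and 12.04% to 12.39% after treatment. These trends moved with the groups, and a fit that corrects each library for GC content and length was run beside the uncorrected one. Without mitochondrial and ribosomal RNA genes, each of the 60 host transcripts had the same call.

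Small nucleolar RNAs (snoRNAs) guide chemical modification and processing of ribosomal RNA. Most human snoRNAs are cut from introns that were spliced out of a host transcript, and the spliced SNHG exons that are left behind carry only short reading frames. Many of these spliced RNAs are short-lived, because translation of those frames exposes them to nonsense-mediated decay, and several begin with a run of pyrimidines like that of ribosomal protein mRNAs. MicroRNA hosts are cut in the nucleus by Drosha and DGCR8, which release a hairpin that Dicer trims to the mature microRNA. Bases 2 to 8 of a mature microRNA, its seed, select the mRNAs that it represses.

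MicroRNAs of 7 called MIR hosts described below are shown first, because their seeds show which of them can share targets. These hosts were picked for their well-studied microRNAs or, for MIR600HG, as the host that rose, and not by the size of their change. RefSeq placed mature microRNAs at 108 positions on the same strand inside 32 of the 33 MIR hosts (GRCh38.p14), let-7a-5p and miR-125b-5p more than once. Of their seeds, 13 were carried by more than 1 differently named microRNA. The sequences below run 5′ to 3′ with the seed in capitals. They come from MIR17HG (chromosome 13, the miR-17 to miR-92 cluster), MIR222HG (chromosome X), MIR23AHG (chromosome 19), MIR210HG (chromosome 11), MIR3142HG (chromosome 5), MIR155HG (chromosome 21) and MIR600HG (chromosome 9).
hsa-miR-17-5p: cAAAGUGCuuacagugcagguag
hsa-miR-20a-5p: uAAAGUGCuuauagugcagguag
hsa-miR-18a-5p: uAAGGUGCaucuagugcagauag
hsa-miR-19a-3p: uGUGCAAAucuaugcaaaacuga
hsa-miR-19b-3p: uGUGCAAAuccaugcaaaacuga
hsa-miR-92a-3p: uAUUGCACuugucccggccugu
hsa-miR-221-3p: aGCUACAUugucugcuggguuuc
hsa-miR-222-3p: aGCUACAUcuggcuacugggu
hsa-miR-23a-3p: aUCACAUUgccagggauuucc
hsa-miR-27a-3p: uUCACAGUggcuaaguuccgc
hsa-miR-24-3p: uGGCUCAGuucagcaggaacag
hsa-miR-210-3p: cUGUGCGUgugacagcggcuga
hsa-miR-146a-5p: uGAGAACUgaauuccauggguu
hsa-miR-155-5p: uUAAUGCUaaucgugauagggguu
hsa-miR-600: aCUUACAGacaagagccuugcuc
Within MIR17HG, miR-17-5p and miR-20a-5p share a seed, and miR-19a-3p and miR-19b-3p share another. The pair in MIR222HG, miR-221-3p and miR-222-3p, also has 1 seed. The counts below are of the long host RNAs, and mature microRNAs were not measured.

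The SNHG hosts changed in both directions after LPS plus nigericin, whereas all MIR hosts called but 1 were lower. Of 27 SNHG hosts, 11 rose, 10 fell and 6 did not pass an adjusted p of 0.05 in edgeR's quasi-likelihood test. Of 33 MIR hosts, 1 rose, 16 fell and 16 did not pass. Among all 19170 tested genes 55.3% were called, 28.9% higher and 26.4% lower. Among 2840 other tested long noncoding RNAs 40.7% were called, 13.5% higher and 27.2% lower. SNHG hosts were thus called higher in 40.7% and lower in 37.0% of cases, and MIR hosts in 3.03% and 48.5%. The median log2 fold change was -0.05 over SNHG hosts, -0.88 over MIR hosts, -0.51 over the other long noncoding RNAs and 0.0016 over all tested genes. These shares are a description, and no test compared the classes.

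**Figure D1:**
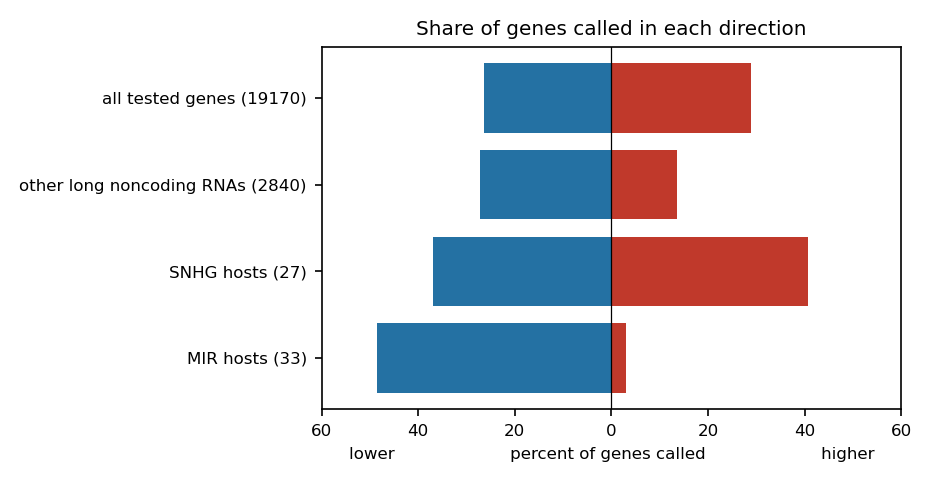
Percent of tested genes called higher (right, red) and lower (left, blue) after LPS plus nigericin at an edgeR adjusted p under 0.05, with the number tested in brackets. The MIR hosts are called higher in 3.03% and lower in 48.5%, and the SNHG hosts in 40.7% and 37.0%.

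All 60 members passed the filter on low counts. Of these, 52 passed it in the 3 libraries of both groups, 4 in all vehicle libraries but not in all treated ones (MIR302CHG, MIR34AHG, MIR4453HG and MIR181A2HG) and 2 the other way round (MIR99AHG and MIR130AHG). Of the members named here, MIR4453HG and MIR181A2HG were called lower and count among the MIR falls, though they met the filter through vehicle. MIR181A2HG was over it in 0 treated libraries. The others named here did not pass an adjusted p of 0.05. Treated libraries lay wholly above vehicle for 12 SNHG and 3 MIR hosts and wholly below for 10 SNHG and 18 MIR hosts, where 35.0% and 32.0% of all tested genes did so, and 67.0% did one or the other. Summed over the class, SNHG hosts took 944, 925 and 920 CPM in the vehicle libraries and 1218, 1372 and 1237 CPM in the treated ones. MIR hosts took 231, 224 and 232 CPM in vehicle and 130, 123 and 126 CPM after treatment. The SNHG sum was thus higher and the MIR sum lower in each treated library. Abundant hosts weigh most in such sums. Mean CPM went from 88.1 to 189 for SNHG1, from 81.8 to 173 for ZFAS1 and from 71.8 to 21.3 for MIR23AHG. SNHG3 went against its class sum, from 112 to 40.7 CPM. The SNHG sum does not describe each member, since 10 of the 27 SNHG hosts fell and their median log2 fold change was -0.05. In bulk RNA, a change in RNA per cell and a change in the share of cells that make it cannot be told apart.

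**Figure D2:**
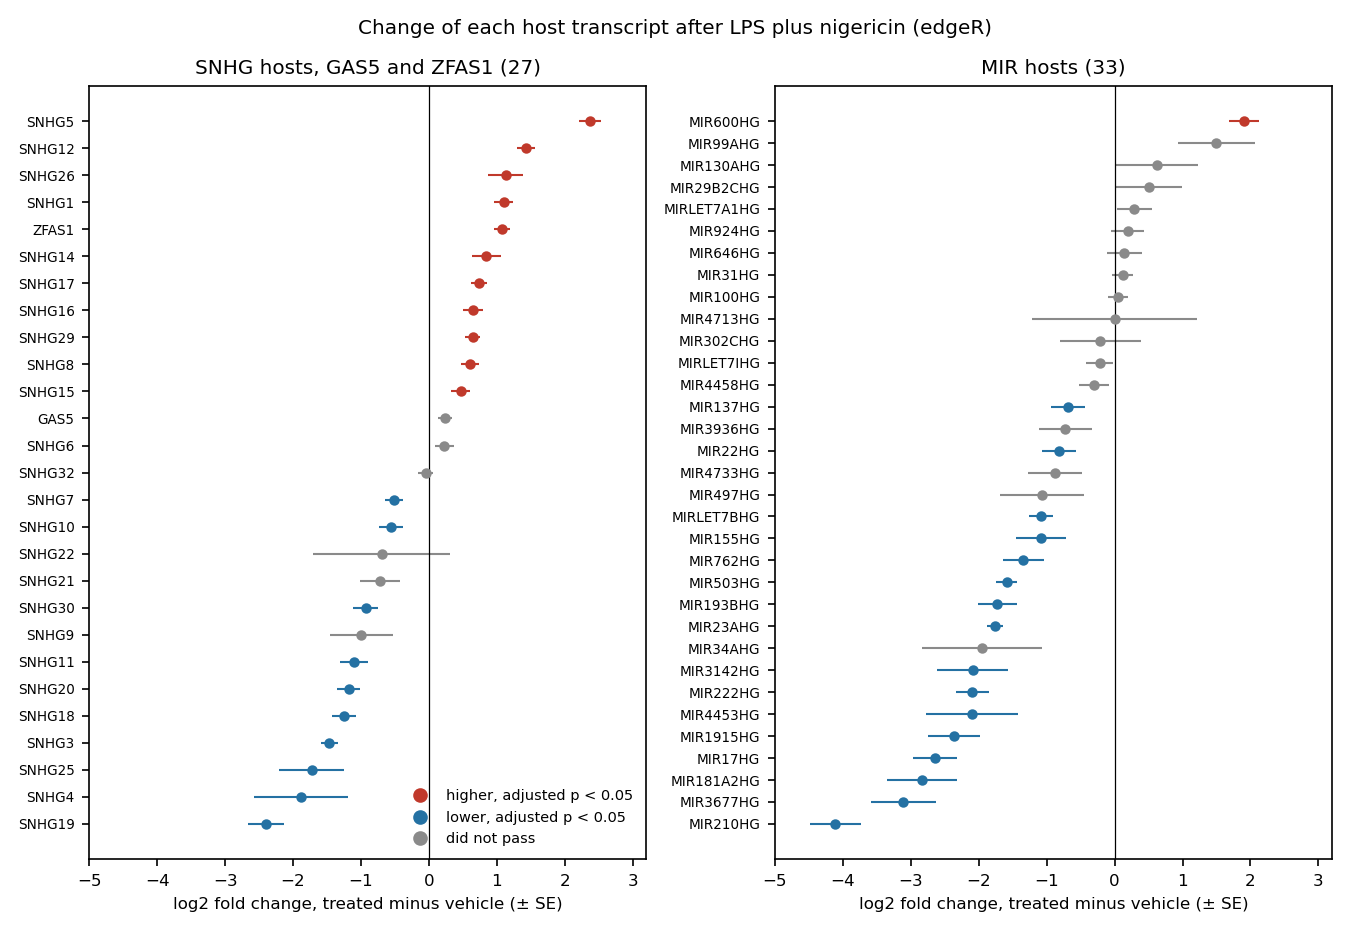
Log2 fold change of each host transcript (treated minus vehicle, point) with its standard error (bar) from edgeR, ordered within the 27 SNHG and 33 MIR hosts. Values run from -2.40 (SNHG19) to 2.37 (SNHG5) in the SNHG class and from -4.11 (MIR210HG) to 1.91 (MIR600HG) in the MIR class.

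SNHG5, which hosts the box C/D snoRNAs SNORD50A and SNORD50B, had the largest rise of the 60. It had 911, 587 and 912 counts in vehicle and 3248, 4365 and 3546 after treatment, the latter being 49.1, 52.3 and 42.2 CPM. The groups were far apart, and the mean rose from 9.23 ± 1.33 to 47.9 ± 5.16 CPM (SD, n = 3 libraries; edgeR log2 fold change 2.37 with a standard error of 0.163, adjusted p = 5.49e-05). SNHG12, host of SNORD99 and several H/ACA snoRNAs, was at 21.7, 19.2 and 19.5 CPM in vehicle and 50.5, 59.6 and 52.7 CPM after treatment (edgeR log2 fold change 1.43 with a standard error of 0.127, adjusted p = 1.31e-04). Every treated library again lay above every vehicle library. SNHG26 was at 4.43, 2.99 and 5.75 CPM in vehicle and 11.1, 9.65 and 8.16 CPM after treatment (log2 fold change 1.13), or 0.60 after GC and length correction.

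The abundant hosts SNHG1 and ZFAS1 rose about as much as each other. SNHG1, which carries a row of box C/D snoRNAs from SNORD25 to SNORD30 in its introns, was at 93.2, 72.0 and 99.0 CPM in vehicle and 181, 197 and 190 CPM after treatment (edgeR log2 fold change 1.10 with a standard error of 0.139, adjusted p = 5.16e-04), or 0.70 with the correction. ZFAS1, host of the SNORD12 snoRNAs, was at 81.8, 88.7 and 75.0 CPM in vehicle and 166, 186 and 166 CPM after treatment (edgeR log2 fold change 1.08 with a standard error of 0.113, adjusted p = 2.45e-04). With the correction its value was 1.55. ZFAS1 shares 249 exon bases with the antisense gene ZNFX1, which itself rose by 1.82 on the log2 scale, and whether counting used strand is unknown, so the part of ZNFX1 reads in the ZFAS1 value was not tested.

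Smaller rises were called for SNHG29, SNHG16 and 3 other hosts. SNHG29 was at 138, 119 and 139 CPM in vehicle and 204, 212 and 202 CPM after treatment (log2 fold change 0.65). SNHG16, host of SNORD1A to SNORD1C, was at 85.7, 97.4 and 76.4 CPM and then 118, 154 and 135 CPM (log2 fold change 0.65). The SNHG16 call was lost after GC and length correction (0.21, edgeR adjusted p = 0.370). SNHG17, SNHG8 and SNHG15, named after their values were seen, had log2 fold changes of 0.74, 0.61 and 0.47, and the SNHG15 call was lost without vehicle replicate 1 or treated replicate 2 or 3 (edgeR adjusted p = 0.0737 to 0.0937).

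SNHG14 is the very long transcript of the imprinted Prader-Willi region that carries the SNORD116 and SNORD115 clusters and runs antisense over UBE3A. It was at 10.7, 8.38 and 14.1 CPM in vehicle and 23.0, 18.9 and 17.8 CPM after treatment (edgeR log2 fold change 0.84 with a standard error of 0.213, adjusted p = 0.0107). After GC and length correction the value was -0.01 (edgeR adjusted p = 0.938), and without treated replicate 1 the adjusted p was 0.0519. Its longest annotated transcript has 13074 bases, against a median of 2955 over tested genes, and UBE3A, with which it shares 198 exon bases, rose by 1.04 on the log2 scale.

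GAS5 and SNHG32 were among the 6 SNHG hosts with the highest mean CPM and did not pass. GAS5, a host of many box C/D snoRNAs that accumulates when cell growth stops, was at 73.2, 78.1 and 74.6 CPM in vehicle and 86.1, 95.9 and 84.8 CPM after treatment. The groups did not overlap, but the difference missed the threshold (edgeR log2 fold change 0.24 with a standard error of 0.105, adjusted p = 0.0832). With the correction the GAS5 value was -0.21 (edgeR adjusted p = 0.179). SNHG32, host of SNORD48 and SNORD52, was at 80.7, 91.9 and 82.9 CPM and then 75.29, 89.95 and 81.7 CPM, with overlapping groups (log2 fold change -0.05, edgeR adjusted p = 0.742). The gene AL671762.1, which shares 418 exon bases with SNHG32 on the same strand, went from 0.317 to 17.0 CPM (log2 fold change 5.78).

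The largest fall among the SNHG hosts was that of SNHG19, host of SNORD60, which was at 4.20, 4.08 and 3.38 CPM in vehicle and 0.937, 0.707 and 0.571 CPM after treatment (edgeR log2 fold change -2.40 with a standard error of 0.259, adjusted p = 2.72e-04). SNHG3, host of the H/ACA snoRNAs SNORA73A and SNORA73B, fell from 116, 115 and 106 CPM to 40.8, 45.5 and 35.8 CPM (edgeR log2 fold change -1.47 with a standard error of 0.125, adjusted p = 1.16e-04). It was the 4th of the 60 in vehicle and the 13th after treatment by CPM per kilobase of annotated exon, at 27.5 ± 1.33 and 9.96 ± 1.19 (SD, n = 3). RCC1, the chromatin-bound exchange factor of Ran, shares 242 exon bases with SNHG3 on the same strand and went the other way, from 123 to 206 CPM (log2 fold change 0.74, edgeR adjusted p = 8.77e-04).

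SNHG18 was at 13.8, 12.8 and 10.3 CPM in vehicle and 4.56, 5.42 and 5.56 CPM after treatment (log2 fold change -1.25). SNHG20 went from 9.16, 8.04 and 10.04 CPM to 4.11, 3.85 and 4.04 CPM (log2 fold change -1.18), and SNHG11 from 15.5, 16.2 and 11.5 CPM to 6.41, 8.03 and 5.56 CPM (log2 fold change -1.11). None of these 3 had overlapping groups, and their calls held in every alternative run. SNHG20 shares 460 exon bases on the same strand with SEC14L1, which averaged 76.25 CPM in vehicle and 84.75 after treatment and did not pass (log2 fold change 0.15, edgeR adjusted p = 0.23). The part of SEC14L1 reads in the SNHG20 value was not tested. SNHG4, which shares 626 exon bases with MATR3, was less settled, at 9.16, 6.28 and 13.7 CPM in vehicle and 3.61, 0.396 and 3.88 CPM after treatment (edgeR log2 fold change -1.89 with a standard error of 0.694, adjusted p = 0.0480). Its call was lost with library totals, DESeq2 or no count filter and on leaving out vehicle replicate 1, 2 or 3 or treated replicate 1 or 3 (edgeR or DESeq2 adjusted p = 0.0561 to 0.197). SNHG7, named after its values were seen, was lower without the correction (log2 fold change -0.51) and higher with it (0.35, edgeR adjusted p = 0.0279), and its fall was lost without vehicle replicate 1 or treated replicate 1 or 3 (edgeR adjusted p = 0.0501 to 0.0585). At 65.9%, the GC content of its longest transcript is far above the class median of 49.2%.

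**Figure D3:**
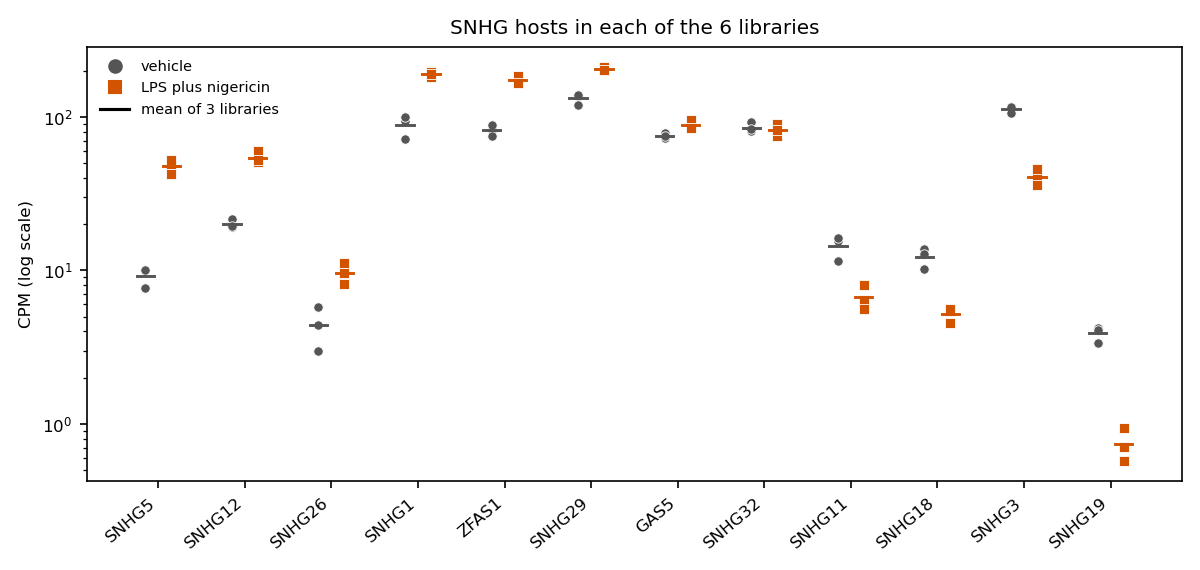
CPM on a log axis of 12 SNHG hosts in each of the 3 vehicle (grey circles) and 3 treated (orange squares) libraries, with a bar at each group's mean. SNHG5 rises from about 9.23 to 47.9 CPM, SNHG3 falls from 112 to 40.7 CPM, and the groups of SNHG32 overlap.

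Neighbouring SNHG hosts, up to 521367 bases apart, moved in opposite directions at 3 places in the genome. As 11 SNHG hosts rose and 10 fell, opposite pairs occur among distant hosts too. Whether neighbours differ more often than other pairs was not tested. On chromosome 1, SNHG3 (28505980 to 28510892, plus strand) fell and SNHG12 (28578538 to 28583132, minus strand) rose, with 67645 bases between them. On chromosome 20, SNHG17 (38420588 to 38435353, minus strand) rose and SNHG11 (38446578 to 38450921, plus strand) fell, with 11224 bases between them. SNHG16 and SNHG20, 521367 bases apart on the plus strand of chromosome 17, rose and fell respectively, but the SNHG16 call was lost after GC and length correction. SNHG19 and MIR3677HG, 112796 bases apart on chromosome 16, both fell. SNHG9, named after its values were seen, lies 189287 bases from SNHG19 and did not pass (log2 fold change -0.99). These coordinates are those of GENCODE 29 on GRCh38.

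A pyrimidine run near the annotated start was found in most SNHG hosts. The 40 bases around the RefSeq start (GRCh38.p14; 10 before it and 30 from it on) are shown for 4 hosts that rose and 3 that fell, with a run of at least 6 C or T that begins within 10 bases of the start in capitals.
SNHG5 (rose, chr6:85678704-85678743, minus): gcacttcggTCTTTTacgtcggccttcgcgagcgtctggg
SNHG12 (rose, chr1:28581844-28581883, minus): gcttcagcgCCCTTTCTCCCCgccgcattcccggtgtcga
SNHG1 (rose, chr11:62855856-62855895, minus): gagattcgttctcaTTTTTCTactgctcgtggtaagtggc
ZFAS1 (rose, chr20:49278632-49278671, plus): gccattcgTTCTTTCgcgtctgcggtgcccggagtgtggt
SNHG3 (fell, chr1:28505933-28505972, plus): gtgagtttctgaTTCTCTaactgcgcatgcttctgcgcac
SNHG19 (fell, chr16:2155329-2155368, minus): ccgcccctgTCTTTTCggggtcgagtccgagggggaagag
SNHG20 (fell, chr17:77088633-77088672, plus): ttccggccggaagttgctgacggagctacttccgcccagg
Of the 23 SNHG hosts in the RefSeq promoter table, 15 had such a run, against 24.5% of all 27305 promoters and 11 of 31 MIR hosts. It was present in 9 of 10 SNHG hosts that rose and in 5 of 9 that fell, SNHG3 and SNHG19 among them, so a run at the start was found on both sides. The E-box CACGTG, a site of MYC family factors, was in the 300-base promoter of 2 SNHG hosts (SNHG7 and SNHG30, both called lower and named after their values were seen) and of 0 MIR hosts, against 7.43% of all promoters on either strand. A motif match is a description of the sequence, and its use by a factor was not measured.

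Among MIR hosts, MIR210HG had the largest fall. It gives rise to miR-210, best known for its induction by hypoxia, and was at 4.71, 5.89 and 4.09 CPM in vehicle and 0.453, 0.180 and 0.226 CPM after treatment. The treated libraries were far below the vehicle ones (edgeR log2 fold change -4.11 with a standard error of 0.380, adjusted p = 1.49e-04), and the value was -3.51 after GC and length correction. MIR3677HG was at 1.61, 2.26 and 1.10 CPM and then 0.317, 0.132 and 0.131 CPM (edgeR log2 fold change -3.11 with a standard error of 0.474, adjusted p = 0.00116). It shares 111 exon bases with RNPS1 on the opposite strand, which fell by 0.37 on the log2 scale.

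MIR17HG, the host of the proliferation-linked miR-17 to miR-92 cluster and a known MYC target, was at 1.34, 1.35 and 1.48 CPM in vehicle and 0.287, 0.204 and 0.179 CPM after treatment (edgeR log2 fold change -2.64 with a standard error of 0.323, adjusted p = 4.63e-04). After GC and length correction the value was -3.32. MIR1915HG went from 2.48, 2.12 and 1.43 CPM to 0.227, 0.491 and 0.441 CPM (log2 fold change -2.37). MIR222HG, which carries the cell cycle microRNAs miR-221 and miR-222, was at 17.0, 12.3 and 23.1 CPM and then 4.398, 3.799 and 4.071 CPM (edgeR log2 fold change -2.10 with a standard error of 0.241, adjusted p = 3.53e-04). Its vehicle libraries spread over a wider range than the gap between the groups, and the treated ones were close together.

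MIR3142HG, the host of the NF-kB-responsive miR-146a, was lower after treatment, at 0.953, 0.551 and 1.503 CPM in vehicle and 0.227, 0.132 and 0.345 CPM after treatment (edgeR log2 fold change -2.09 with a standard error of 0.520, adjusted p = 0.0101). MIR155HG, host of miR-155, another microRNA of inflammation, was named after its values were seen. It was at 1.55, 0.957 and 2.16 CPM and then 0.922, 0.731 and 0.548 CPM (log2 fold change -1.09, edgeR adjusted p = 0.0362). The MIR155HG call was lost with the replicate block and on leaving out vehicle replicate 1 or 3 or any treated replicate (edgeR adjusted p = 0.0520 to 0.118). Both inflammation-linked hosts were thus lower in each treated library, MIR155HG with the weaker support.

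MIR23AHG, host of the cluster of miR-23a, miR-27a and miR-24-2, was the MIR host with the highest CPM in vehicle. In each treated library it stood below MIR100HG. MIR23AHG was at 71.8, 77.3 and 66.2 CPM in vehicle and 21.3, 21.6 and 20.9 CPM after treatment (edgeR log2 fold change -1.76 with a standard error of 0.116, adjusted p = 4.91e-05). GENCODE 29 gives it 1 exon of 19049 bases on the minus strand of chromosome 19, so per kilobase it stood at only 3.77 ± 0.294 and 1.12 ± 0.0170 (SD, n = 3). The antisense gene ZSWIM4, with 2286 shared exon bases, rose by 1.42 on the log2 scale, opposite to MIR23AHG. MIRLET7BHG, host of let-7a-3 and let-7b, fell from 28.5, 32.6 and 22.4 CPM to 11.8, 15.1 and 12.4 CPM (log2 fold change -1.09), or -0.54 with the correction. MIR503HG, named after its values were seen, fell from 11.6, 11.4 and 10.7 CPM to 3.51, 3.98 and 3.71 CPM (log2 fold change -1.59).

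MIR22HG, host of miR-22, was at 10.2, 6.36 and 12.5 CPM in vehicle and 5.74, 5.68 and 5.01 CPM after treatment (log2 fold change -0.82, edgeR adjusted p = 0.0234). The call was lost on leaving out vehicle replicate 1 or 3 or any treated replicate (edgeR adjusted p = 0.0531 to 0.0865). MIR100HG, host of miR-100, let-7a-2 and miR-125b-1, was at 31.7, 25.1 and 34.3 CPM and then 33.8, 30.2 and 30.3 CPM (log2 fold change 0.05, edgeR adjusted p = 0.801). With the correction it was lower, at -0.69 (edgeR adjusted p = 5.70e-04). MIR31HG, host of miR-31, was at 16.1, 12.9 and 15.6 CPM and then 14.6, 15.8 and 18.1 CPM (log2 fold change 0.12), and passed at 0.63 with the correction (edgeR adjusted p = 0.0168). By CPM per kilobase MIR31HG was the 8th of the 60 in both groups, at 19.9 ± 2.30 and 21.7 ± 2.42, and the highest MIR host.

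MIR600HG was the 1 MIR host called higher. It was at 1.73, 1.22 and 1.76 CPM in vehicle and 6.56, 5.66 and 5.50 CPM after treatment (edgeR log2 fold change 1.91 with a standard error of 0.219, adjusted p = 3.52e-04), and the correction left it at 1.90. MIR600HG shares 254 exon bases with STRBP on the same strand, which rose by 0.70 on the log2 scale. The part of STRBP reads in this value was not tested. Among the hyphenated symbols outside the rule, MIR194-2HG, named after its values were seen, was also higher (edgeR log2 fold change 1.99, adjusted p = 0.0343). It was at 0.132, 0.210 and 0.0439 CPM in vehicle and 0.710, 0.288 and 0.536 CPM after treatment. MIR4435-2HG, MIR9-1HG and MIR1302-9HG did not pass (log2 fold changes 0.28, 0.98 and -0.40).

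**Figure D4:**
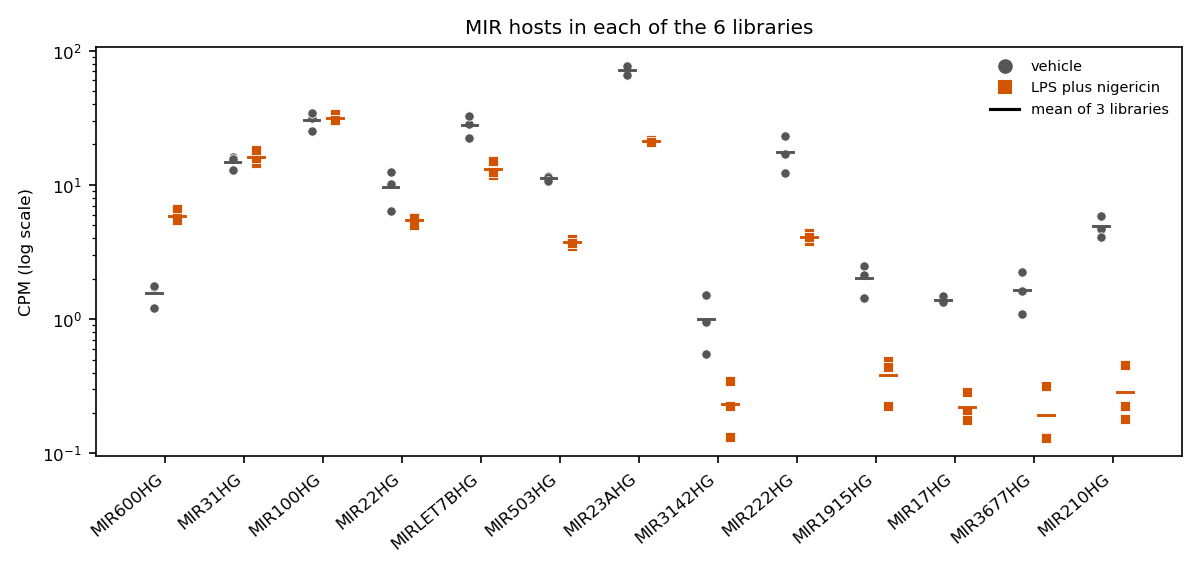
CPM on a log axis of 13 MIR hosts in each of the 3 vehicle (grey circles) and 3 treated (orange squares) libraries, with a bar at each group's mean. MIR600HG rises from 1.57 to 5.91 CPM, MIR210HG falls from 4.90 to 0.286 CPM, and the groups of MIR31HG and MIR100HG overlap.

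The split between the classes was also seen among hosts that share no exon sequence with another gene. At least 50 exon bases were shared by 31 of the 60 members. They include SNHG16 (1639 bases with AC015802.6), SNHG7 (1094 with FAM69B) and SNHG29 (452 with LRRC75A), whose partners are on the opposite strand and less abundant. Of the 14 SNHG hosts without such sharing, 7 rose and 5 fell, and of the 15 MIR hosts without it, 0 rose and 11 fell in edgeR (median log2 fold change -1.72). These 11 falls include MIR4453HG and MIR181A2HG, which met the count filter through vehicle. Of those 15, MIR99AHG, named after its values were seen, alone was higher at an unadjusted p under 0.05, and it passed with DESeq2 (1 higher) but not with limma-voom (0 higher). The 7 MIR hosts with a mean of at least 5 CPM held 5 falls and 0 rises in edgeR (0 rises at an unadjusted p under 0.05, with DESeq2 or with limma-voom, but 6 falls and 1 rise, MIR31HG, after GC and length correction), and the 26 under it held 11 falls and 1 rise.

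After GC and length correction, 10 SNHG hosts were higher and 9 lower, and 2 MIR hosts were higher and 19 lower, where 23.6% of 18620 genes were higher and 26.8% lower. Between both fits the log2 fold change differed by a median of 0.45, and by more than 0.3 in 41 of the 60 hosts. The correction also removes any effect of treatment that follows GC content or length. The median GC content of the longest transcript was 49.2% in SNHG hosts and 47.7% in MIR hosts, against 49.0% in all tested genes, and the median lengths were 1662 and 2626 bases. MIRLET7IHG and MIR4458HG, named after their values were seen, passed only with it, at -1.26 and -1.03.

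**Figure D5:**
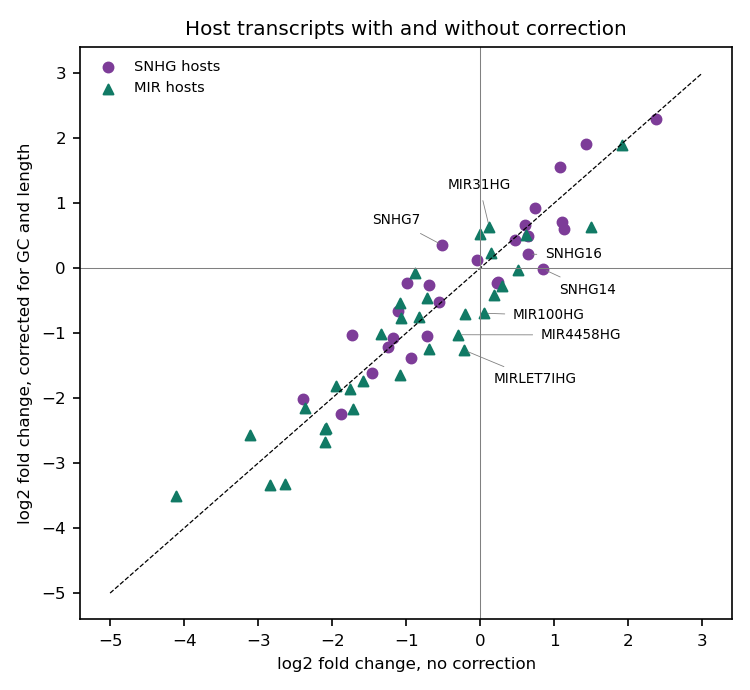
Log2 fold change of each of the 60 host transcripts without (horizontal) and with (vertical) the correction for GC content and length; circles are SNHG hosts, triangles MIR hosts, and the dashed line marks equal values. The values differ by more than 0.3 in 41 of the 60 hosts, SNHG7 goes from -0.51 to 0.35, and SNHG14 from 0.84 to -0.01.

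Small RNA genes inside the hosts were mostly not measurable in this table. GENCODE 29 places 141 snoRNA or small Cajal body RNA genes and 61 microRNA genes on the same strand inside 58 of the hosts. Of the 120 with a row in the table, 20 were at 0 and 28 at exactly 1 in every library, and 42 more held only values of 0 and 1, although a host such as SNHG5 had up to 4365 counts in a library. The origin of these values is not known, and a value of 1 is not taken as expression. Only 6 reached 60 counts in sum, each in an intron of its host.

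Of these 6, 4 were called, where 55.3% of all tested genes were, and their values are given as a description. Only SNORA73B and SNORD99 were over the CPM filter in all 6 libraries. MIR221 and SNORD104 met it through vehicle (3 libraries, against 0 and 1 treated), and SNORA71D and SNORD12C through treatment (3 libraries, against 0). Each met it through the group where it was higher, so the p-values of these small RNAs are not read as support. SNORA73B, a guide RNA of ribosomal RNA processing inside SNHG3, had 110, 64 and 135 counts in vehicle and 16, 24 and 19 after treatment (log2 fold change -2.22, edgeR adjusted p = 0.00143). SNORD104 inside SNHG25, a host given here only because it holds this small RNA, had 51, 47 and 33 counts and then 9, 9 and 4 (log2 fold change -2.39, edgeR adjusted p = 0.00838). SNHG25 fell by 1.73 on the log2 scale, a call lost after GC and length correction and without vehicle replicate 2 or treated replicate 1 or 3 (edgeR adjusted p = 0.0558 to 0.065). SNORA71D inside SNHG17 had 2, 4 and 3 counts and then 23, 13 and 17 (log2 fold change 2.68, edgeR adjusted p = 0.0182). The precursor MIR221 inside MIR222HG had 35, 22 and 59 counts in vehicle and 2 in each treated library (log2 fold change -4.02, edgeR adjusted p = 0.00166). SNORD99 did not pass (44, 18 and 22 counts, then 19, 30 and 25) while SNHG12 rose, and SNORD12C inside ZFAS1 had 9, 3 and 4 counts and then 12, 15 and 19 (edgeR adjusted p = 0.0784). Mature snoRNAs and unspliced introns are not separated by these counts.

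Genes of the machinery that handles these RNAs are given here as counts per list, beside the 28.9% of tested genes called higher and 26.4% lower. Of 22 snoRNA-protein particle and assembly genes, 9 rose, 5 fell and 8 did not pass (median log2 fold change 0.37, or 0.16 with the correction). With the correction, 7 were higher and 5 lower. NOP58, a core protein of box C/D particles, went from 30.4 ± 10.5 CPM up to 115 ± 9.04 CPM (1.92 on the log2 scale), and NOLC1, a nucleolar chaperone of these particles, from 62.4 ± 3.87 to 223 ± 12.5 CPM (1.84). RUVBL2, an ATPase of particle assembly, fell from 275 ± 62.6 to 140 ± 13.4 CPM (-0.98), or -0.29 with the correction, and SNU13, which binds the box C/D fold, from 113 ± 9.43 to 63.8 ± 4.18 CPM (-0.83).

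In the microRNA pathway, 13 of 21 tested genes rose, 3 fell and 5 did not pass (median 0.74, or 0.15 with the correction, under which 8 were higher and 6 lower). The 2 subunits of the nuclear processor moved apart. DROSHA, its nuclease, rose from 39.4 ± 2.29 to 87.88 ± 10.97 CPM (log2 fold change 1.16, edgeR adjusted p = 3.09e-04, or 0.61 with the correction), and DGCR8, its RNA-binding partner, fell from 49.8 ± 2.26 to 23.0 ± 1.32 CPM (-1.12, edgeR adjusted p = 2.35e-04, or -1.04). AGO2, the slicing Argonaute, rose from 36.9 ± 2.09 to 93.9 ± 4.07 CPM (1.35, or 0.58 with the correction), and TARBP2, a partner of Dicer, fell from 47.0 ± 7.92 to 23.0 ± 4.85 CPM (-1.03, or -0.32).

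Of 26 genes of nonsense-mediated decay and its partners in termination and decapping, 16 rose, 3 fell and 7 did not pass (median 0.62, or 0.30 with the correction). With the correction, 11 were higher and 5 lower. DCP1A, a decapping cofactor, went from 9.34 ± 0.718 CPM up to 51.3 ± 5.28 CPM (2.46 on the log2 scale, or 1.74 with the correction), and ETF1, the release factor of translation, from 108 ± 14.2 to 420 ± 30.7 CPM (1.96, or 1.42). SMG9, a regulator of the kinase SMG1, fell by 0.57 on the log2 scale, and RNPS1 by 0.37.

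Protein-coding genes that carry snoRNAs or microRNAs changed in both directions. Of 44 protein-coding snoRNA hosts, 18 rose, 7 fell and 19 did not pass (median 0.06), and with the correction 20 were higher and 10 lower. TAF1D, a subunit of the RNA polymerase I factor SL1 whose introns hold many snoRNAs, rose from 75.7 ± 8.42 to 312 ± 7.59 CPM (log2 fold change 2.04, or 1.18 with the correction), and HSPA9, the mitochondrial HSP70, by 1.28 on the log2 scale, or 0.63. EIF4A1, the translation initiation helicase, fell from 1402 ± 96.2 to 801 ± 138 CPM (-0.81), and SF3B3, a splicing factor, by 0.40. Of 28 tested protein-coding microRNA hosts, 13 rose, 8 fell and 7 did not pass (median 0.32, or 0.02 with the correction). With the correction, 10 were higher and 8 lower. SLIT2, a guidance ligand and host of miR-218, rose by 2.19, or 1.495 with the correction, and PANK2, a coenzyme A synthesis enzyme and host of miR-103, by 1.03. MCM7, a helicase subunit that hosts the miR-106b cluster, fell by 0.72, or 0.26 with the correction, and CTDSP1, host of miR-26b, by 1.24, or 0.49. No test compared these lists with the noncoding hosts.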

How the data were processed

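The authors deposited raw whole-number counts for Ensembl gene identifiers, each library in a column of its own per the file headers, and the submitters' processing notes name hg38. No aligner, counting tool, annotation release or strand setting was found (not given in the sources used here). Symbols matched 37840 of 37871 identifiers. A symbol held by several identifiers went to that with most counts. Genes kept by filterByExpr (19170) were normalized with TMM factors and tested with edgeR 4.0.16 in R 4.3.3 (robust quasi-likelihood, group as the only term, Benjamini-Hochberg over all tested genes, threshold 0.05). The script was tested on simulated data. Replicate libraries were not duplicates (chi-square over its degrees of freedom 23.8 to 203). Alternatives were RLE factors, library totals, DESeq2 1.42.0, limma-voom (limma 3.58.1), no filter, 1 CPM in 3 libraries, a replicate block, a correction by loess curves (span 0.3) on GC and length of the longest GENCODE 29 transcript, removal of mitochondrial and rRNA genes, and leaving out each library. Sequences came from RefSeq (GRCh38.p14). Members and lists were chosen with earlier results of these data known. Named per class were the 6 members with the highest mean CPM and the 6 largest called rises and falls without overlap and whose higher group averaged 1 CPM or more, and per list the 2 smallest p in each direction. Other members are marked as named after their values were seen, except those given for the count minimum or the count filter, and SNHG25, given with SNORD104.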

Additional observations from a re-analysis of the deposited data

How the results depend on the processing

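The count of SNHG hosts called higher was 10 or 11 in every alternative, and that of MIR hosts called lower 12 to 19. SNHG hosts called lower numbered 6 without treated replicate 1, against 10, and 6 to 10 over the libraries left out in turn. MIR hosts called higher numbered 2 with DESeq2 and after GC and length correction, against 1, and 1 on leaving out each library. The SNHG median log2 fold change of -0.05 lies near 0 and changed sign, to 0.21 with a minimum of 1 CPM in 3 libraries and 0.14 with limma-voom. It was -0.21 with the correction and -0.12 to 0.18 over the libraries left out. The MIR median of -0.88 was -1.09 with that minimum, -1.02 with limma-voom, -1.02 with the correction and -1.09 to -0.78 over the libraries left out. Fewer members were tested under the stricter minimum, and the cause of these shifts was not tested. Signs also changed with the correction for SNHG14 (-0.013), GAS5 (-0.21), SNHG32 (0.13) and MIR100HG (-0.69), for MIR100HG with library totals (-0.017), and over the libraries left out for SNHG32 (-0.12 to 0.0097) and MIR100HG (-0.075 to 0.14). Same-numbered vehicle and treated libraries did not deviate together (r = -0.0231, 0.0956 and -0.0236 across genes). With the replicate block, 11 SNHG hosts were higher and 11 lower, and 1 MIR host was higher and 15 lower. Over the 28 transcripts named by rule, 394 of 419 values under alternatives kept their direction and side of the threshold. That tally leaves out the other 32 hosts, of which 14 changed call in at least 1 alternative, against 6 of the 28. Members under 1 CPM rest on few counts per library, which limits their precision.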
